A study of Homo sapiens with 4 samples.

Results

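The genes described here are 10 enzymes that act next to the membrane when a natural killer (NK) cell receptor is engaged. They comprise the phosphatases PTPRC (CD45), PTPN6 (SHP-1), PTPN11 (SHP-2), PTPN2, PTPN22 and INPP5D (SHIP1), and the kinases LCK, FYN, CSK and ZAP70. They were chosen by symbol, and all 10 were found among the 20323 genes of the deposited table. All libraries came from NK-92, a human NK cell line that depends on interleukin 2 and was grown with it. NK scramble cells carried a lentiviral shRNA of scrambled sequence, and NK shADAR1 cells a lentiviral shRNA against ADAR1, an enzyme that edits adenosine to inosine in RNA. Each group had 2 libraries, described by the submitters as independent biological replicates of the line, and both groups had been exposed to virus. The sources used here do not mention a selection of transduced NK-92 cells. The knockdown cells that were sequenced carried the hairpin named shADAR1-2 in the study's text, so numbers 1 and 2 in the sample titles were taken for replicates. With 1 cell line in all libraries, the spread between replicates is that of cultures, not of donors.

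In NK cells, as in T cells, signaling starts with Src-family kinases. LCK and FYN phosphorylate the tails of receptor-associated adapters, and ZAP70 and SYK bind there and carry the signal on. CSK holds Src-family kinases inactive by phosphorylating a tyrosine in their tail, and CD45 removes that phosphate. SHP-1, SHP-2 and SHIP1 are recruited by inhibitory receptors through their SH2 domains, and PTPN22 and PTPN2 dephosphorylate the kinases themselves. Transcript levels do not report phosphorylation, and none was measured in these libraries.

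The estimated counts summed to between 37881704 and 39960491 per library. ADAR, the targeted gene, was lower in both NK shADAR1 libraries, at 655 and 682 CPM in the controls against 575 and 482 CPM under shADAR1. CPM are counts scaled to a common library size with TMM factors. Values are given throughout for replicates 1 and 2 of NK scramble (the controls) and then for replicates 1 and 2 of NK shADAR1. The log2 fold change of ADAR, -0.34 (standard error 0.20), did not pass (edgeR quasi-likelihood test, adjusted p = 1.00). In bulk RNA, fewer cells expressing a gene and less RNA per cell cannot be told apart. All 11 NK markers examined were detected, with NKG7 at 1742 to 2081 FPKM. FPKM divides counts by transcript length and library size and is used here to compare genes. Of 10 T cell markers, 6 stayed under 1 FPKM in every library, among them CD3D, CD3G, CD8A and CD8B. The other 4 were present, CD3E at 396 to 554 FPKM, CD28 at 31.1 to 46.4, CD6 at 15.6 to 23.8 and TRAT1 at 9.05 to 12.1 FPKM. Of 6 B cell markers and 8 myeloid markers, 4 and 5 stayed under 1 FPKM throughout, and their summed levels were at most 7.81 and 9.82 FPKM. Over the 4 libraries in that order, the sums were 4.07, 3.03, 7.81 and 3.08 FPKM for B cell markers and 7.26, 7.12, 9.59 and 9.82 FPKM for myeloid markers. All tested markers of T cells (5), B cells (2) and myeloid cells (4) had log2 fold changes above 0, and 0 of these had an unadjusted p under 0.05 (edgeR). Their part in the results was not tested.

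PTPRC, PTPN6 and PTPN22 were the members furthest apart between the groups, so the 250 bases upstream of their RefSeq start sites (GRCh38.p14) are shown. RefSeq promoter entries were found for 9 of the 10 members, 16 in all, with the exception of PTPN11. PTPN6 has a pair of start regions, and the downstream region is the one known for its use in blood cells. Capitals mark the letters GGAAGT, a core bound by ETS factors, and TGTGGT, a core bound by RUNX factors, on either strand, so that ACTTCC and ACCACA are also in capitals. These motifs were chosen from general knowledge of lymphocyte promoters, and the RNA data do not test them. The sequences are read on the gene's strand, 5′ to 3′. They lie at chr1:198638790-198639039 (plus strand) for PTPRC, at chr12:6946327-6946576 and chr12:6951106-6951355 (plus strand) for PTPN6, and at chr1:113871713-113871962 (minus strand) for PTPN22.
PTPRC: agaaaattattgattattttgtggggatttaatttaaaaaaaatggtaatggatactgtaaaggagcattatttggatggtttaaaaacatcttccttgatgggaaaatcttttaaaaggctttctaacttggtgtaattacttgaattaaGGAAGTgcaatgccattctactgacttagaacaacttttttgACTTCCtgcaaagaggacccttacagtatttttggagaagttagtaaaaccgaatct
PTPN6, upstream start: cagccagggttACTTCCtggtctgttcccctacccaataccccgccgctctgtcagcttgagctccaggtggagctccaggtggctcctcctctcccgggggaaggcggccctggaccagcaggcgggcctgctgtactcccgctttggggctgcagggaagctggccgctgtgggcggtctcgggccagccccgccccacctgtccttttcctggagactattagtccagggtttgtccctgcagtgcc
PTPN6, downstream start: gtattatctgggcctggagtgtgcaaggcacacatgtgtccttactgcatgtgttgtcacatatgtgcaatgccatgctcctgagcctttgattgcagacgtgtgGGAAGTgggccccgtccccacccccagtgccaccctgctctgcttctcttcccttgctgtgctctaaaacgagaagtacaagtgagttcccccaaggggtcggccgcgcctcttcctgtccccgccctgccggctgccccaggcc
PTPN22: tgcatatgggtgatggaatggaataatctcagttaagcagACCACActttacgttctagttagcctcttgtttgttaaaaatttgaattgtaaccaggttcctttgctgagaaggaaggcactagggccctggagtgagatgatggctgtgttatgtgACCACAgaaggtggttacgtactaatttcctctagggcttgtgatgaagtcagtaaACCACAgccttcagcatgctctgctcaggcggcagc

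In these windows, PTPRC held the ETS letters 2 times, starting 99 and 57 bases before the start site, and PTPN6 held them once in each window, 239 and 145 bases before it. PTPN22 held the RUNX letters 3 times, at 210, 92 and 36 bases before the start, and no ETS letters. The ETS letters occurred in 6 of the 16 windows of members, against 19.5% of 35116 promoters of the same length, and the RUNX letters in 2 of 16, against 10.98%. The PTPRC window was poor in G and C (31.2%) and held 1 CpG, whereas the upstream and downstream PTPN6 windows were 66.4% and 59.6% G and C with 10 and 8 CpGs. A match describes letters only.

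PTPRC encodes CD45, a transmembrane phosphatase that sets how much Src-family kinase is ready to act. It lies on chromosome 1 from 198638457 to 198757476 in GRCh38 (GENCODE release 29, plus strand), with 17 annotated transcripts, which the deposited counts do not separate. PTPRC had 582 and 503 CPM in the controls against 945 and 750 CPM under shADAR1. Both knockdown libraries were above both controls, and NK shADAR1 replicate 1 was the highest of the 4. The fold of NK shADAR1 over NK scramble was 1.56, a log2 fold change of 0.64 (standard error 0.22, unadjusted p = 0.0135, adjusted p = 1.00, edgeR). Without NK shADAR1 replicate 1 the log2 fold change was 0.47, and without replicate 2 it was 0.80. The study had singled out PTPRC (among migration-related genes) and PTPN6 (among genes of NK effector function) as increased from these same libraries. Their direction is therefore not independent evidence here. It reported differentially expressed genes at an adjusted p under 0.05 with DESeq2, whereas DESeq2 called 0 genes here.

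PTPN6 encodes SHP-1, the phosphatase that inhibitory NK receptors recruit through motifs in their tails. It spans 6946468 to 6961316 on chromosome 12. Its level was low, at 16.2 and 26.2 CPM in the controls against 31.3 and 35.5 CPM under shADAR1. The groups did not overlap, but the controls lay far from each other, and NK scramble replicate 2 was nearer to NK shADAR1 replicate 1 than to its own replicate. The log2 fold change was 0.66 (standard error 0.25, unadjusted p = 0.0260, adjusted p = 1.00, edgeR). It was 0.35 without NK scramble replicate 1 and 1.04 without NK scramble replicate 2, so its size rested on which control was kept. Its counts were 646 and 1029 in the controls against 1230 and 1325 under shADAR1, which leaves little counting error.

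PTPN22 encodes a lymphoid phosphatase that binds CSK and dephosphorylates LCK and ZAP70. Its locus is chromosome 1, 113813811 to 113871759, minus strand. It had 150 and 114 CPM in the controls against 212 and 170 CPM under shADAR1. The lowest knockdown library stood above the highest control. The log2 fold change was 0.53 (standard error 0.22, unadjusted p = 0.0333, adjusted p = 1.00, edgeR), a fold of 1.45. It was 0.35 without NK scramble replicate 2, 0.37 without NK shADAR1 replicate 1 and 0.74 without NK scramble replicate 1. An antisense gene, AL137856.1, shares 105 exon bases with PTPN22 and was not analysed here, and the study does not state whether counting used strand.

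INPP5D encodes SHIP1, which is not a protein phosphatase but removes a phosphate from the lipid product of PI3 kinase. It had 270 and 244 CPM in the controls against 275 CPM in each NK shADAR1 library. The groups did not overlap, by a margin of a few CPM, and the log2 fold change of 0.096 was smaller than its standard error of 0.19. PTPN11 encodes SHP-2, the relative of SHP-1 that acts mostly in support of growth factor signaling. It had 130 and 176 CPM in the controls against 173 and 132 CPM under shADAR1. The highest and the lowest library were both controls, and the log2 fold change was -0.0007 (standard error 0.23). PTPN11 shares 111 exon bases with RPL6, a ribosomal protein gene on the opposite strand. PTPN2, which encodes a phosphatase of JAK and Src-family kinases, had 20.2 and 16.3 CPM in the controls against 19.3 and 16.8 CPM under shADAR1. Its groups overlapped (log2 fold change -0.021, standard error 0.22).

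**Figure D1:**
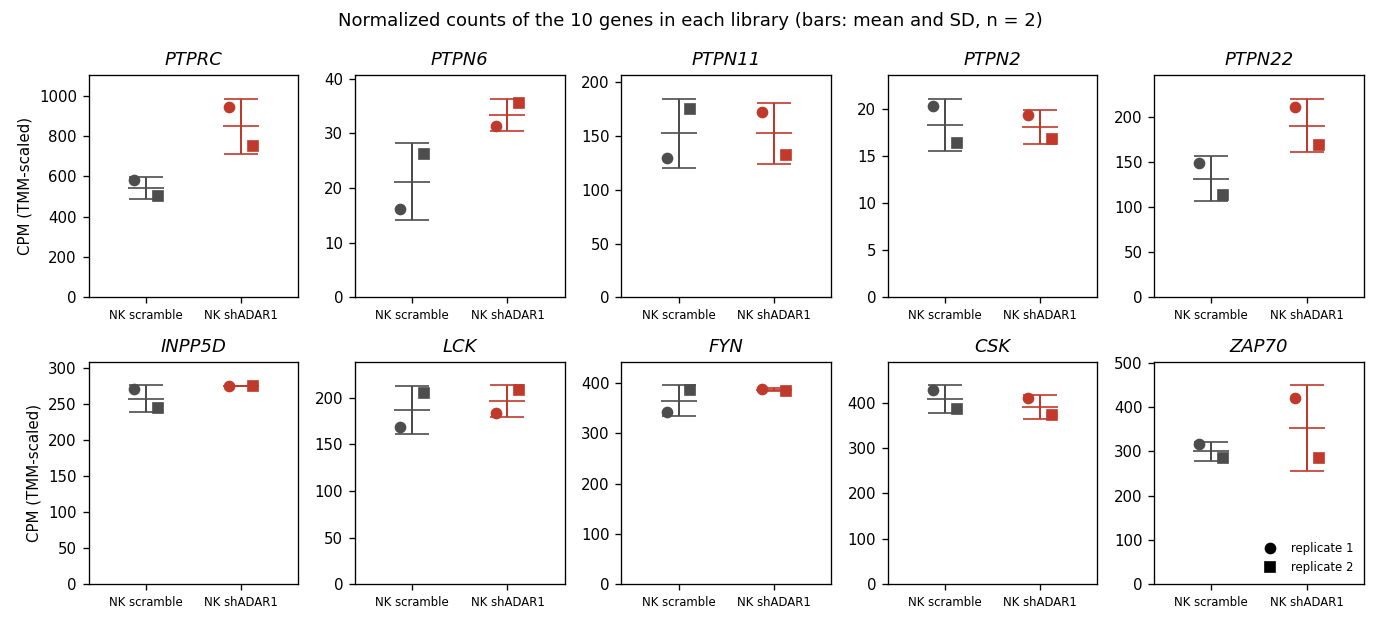
TMM-scaled counts (CPM) of the 10 genes, a panel each with its own axis from 0, in the 2 NK scramble libraries (grey) and the 2 NK shADAR1 libraries (red). Circles are replicate 1 and squares replicate 2, and bars give mean and SD (n = 2). PTPRC, PTPN6, PTPN22 and INPP5D do not overlap between the groups, INPP5D by the narrowest margin, and the other 6 genes overlap.

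Among the kinases, no member was separated between the groups. LCK, the Src-family kinase that T cells rely on, had 169 and 205 CPM in the controls against 184 and 208 CPM under shADAR1 (log2 fold change 0.067, standard error 0.20). Replicate 2 was higher than replicate 1 in either group. FYN, its relative that works with the adapter SAP in NK cells, had 343 and 386 CPM in the controls against 389 and 385 CPM under shADAR1 (log2 fold change 0.085, standard error 0.19). Only NK scramble replicate 1 stood below the rest. CSK, the kinase that restrains both, had 429 and 385 CPM in the controls against 409 and 372 CPM under shADAR1 (log2 fold change -0.059, standard error 0.20). Replicate 1 was the higher in each group. ZAP70, which binds phosphorylated adapter tails, had 315 and 284 CPM in the controls against 420 and 285 CPM under shADAR1. Its log2 fold change was 0.23 (standard error 0.23). NK shADAR1 replicate 1 alone was above the other 3 libraries, and without it the log2 fold change was -0.073. Adjusted p-values of all 10 members were 1.00 (edgeR).

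The remaining members lie apart in the genome, at chr12:112418351-112509913 (PTPN11, plus strand), chr2:233059967-233207903 (INPP5D, plus), chr1:32251239-32286165 (LCK, plus), chr6:111660332-111873452 (FYN, minus), chr15:74782057-74803198 (CSK, plus) and chr2:97713560-97739862 (ZAP70, plus), and PTPN2 lies on chromosome 18 (minus). Apart from PTPN11 and PTPN22, none shares exon bases with another annotated gene.

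Counted over the 10 members, 3 were higher in NK shADAR1 cells at an unadjusted p under 0.05 (edgeR), against 1.70% of all 11810 tested genes, and 0 were lower, against 0.779%. The members were chosen with earlier results of these data known, and the study had already singled out PTPRC and PTPN6 as increased. This count and the count without overlap below are therefore not independent evidence. After adjustment over all tested genes with a fold change of at least 1.5, 0 members were called, and so were 0% of all tested genes. DESeq2 also called 0 genes, and 293 genes in all had an unadjusted p under 0.05 in edgeR and 289 in DESeq2, and 213 and 196 of these reached a fold of 1.5. Groups did not overlap for 4 members, all higher, whereas 13.3% of tested genes were higher without overlap and 12.6% lower. These 4 were all phosphatases, of 6, and none of the 4 kinases. The split into phosphatases and kinases was chosen after the data were seen. INPP5D was separated in CPM only, since its FPKM were 57.0 and 51.1 in the controls against 62.2 and 55.8 under shADAR1. The median log2 fold change was 0.091 over the 10 members, 0.31 over the 6 phosphatases and 0.076 over the 4 kinases, beside 0.00 over all tested genes. The median of the kinases was 0.0027 without NK shADAR1 replicate 1, 0.0083 without NK scramble replicate 1, 0.16 without NK scramble replicate 2 and 0.048 without NK shADAR1 replicate 2, and that of the phosphatases stayed between 0.23 and 0.37. All 10 passed the filter on low counts. The difference between phosphatases and kinases was not tested.

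**Figure D2:**
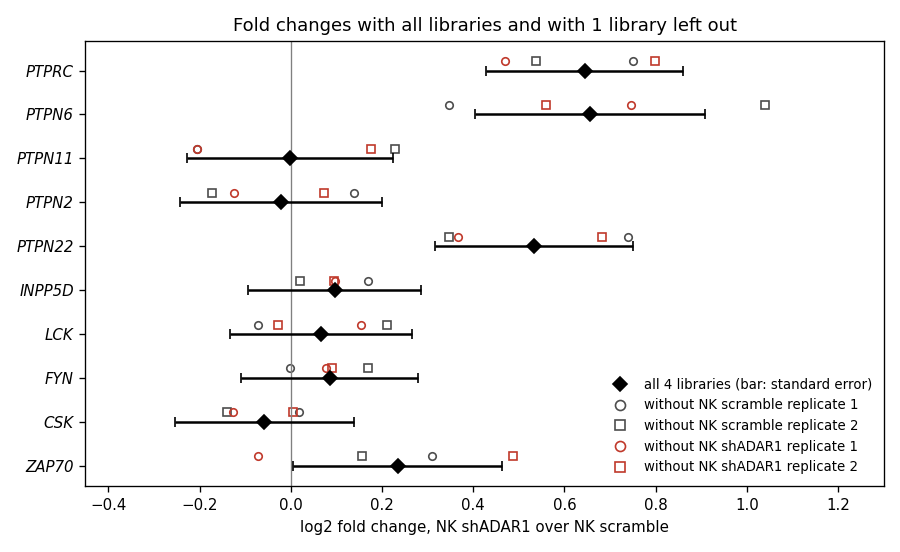
Log2 fold change of each gene (NK shADAR1 over NK scramble, horizontal axis) from edgeR with all 4 libraries (black diamonds, bars are standard errors) and with 1 library left out (open symbols). PTPRC, PTPN6 and PTPN22 stay between 0.35 and 1.04 with any library left out, and INPP5D between 0.019 and 0.17. The other 6 lie on either side of 0.

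Levels per transcript length placed the members over a wide range, shown here as FPKM over all 4 libraries regardless of group. PTPRC had the highest mean, 210 FPKM, with a range of 148 to 314. It was followed by FYN at 188 FPKM (179 to 203) and CSK at 188 FPKM (176 to 198). ZAP70 had a mean of 148 FPKM and LCK of 95.5 FPKM. The ranges of PTPRC, FYN, CSK and ZAP70 overlapped, so their order is not fixed, whereas ZAP70 exceeded LCK in all 4 libraries with ranges apart (lowest ZAP70 122, highest LCK 102 FPKM). INPP5D followed at 56.5 FPKM and PTPN22 at 51.4 FPKM, with overlapping ranges. PTPN11 had 27.5 FPKM, PTPN6 had 12.7 FPKM and PTPN2 had 10.5 FPKM. PTPN11 was above PTPN6 in each library (lowest PTPN11 23.1, highest PTPN6 16.2 FPKM), while PTPN6 and PTPN2 overlapped. PTPRC was above 96.9% and PTPN6 above 52.3% of tested genes.

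**Figure D3:**
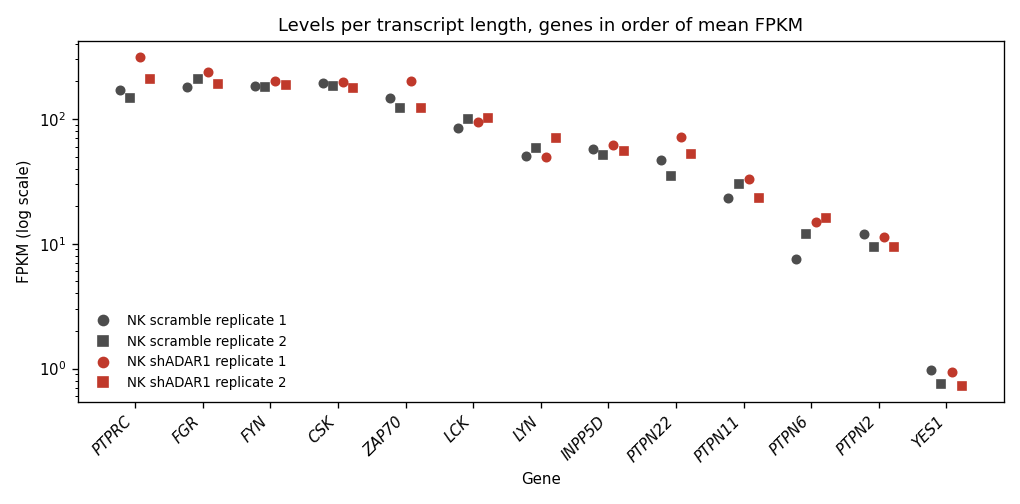
FPKM on a log axis for the 10 genes and for the other Src-family kinases that passed the count filter (FGR, LYN, YES1), in order of mean level, with a symbol for each library as in the legend. PTPRC, FGR, FYN, CSK and ZAP70 share the top of the range, PTPN6 and PTPN2 lie near 10 FPKM, and YES1 lies under 1 FPKM.

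Ratios of members within a library do not depend on how libraries were scaled to each other. CD45 and CSK act on the same tail tyrosine in opposite directions. The FPKM of PTPRC over that of CSK was 0.868 and 0.812 in the controls against 1.58 and 1.19 under shADAR1. The FPKM ratio was thus under 1 in each control and over 1 in each knockdown library, a difference of 0.71 on the log2 scale. The crossing of 1 depends on the division by length, since in CPM PTPRC was above CSK in every library. With counts in place of FPKM the difference was 0.70. The log2 fold change of CSK was -0.059, so the ratio mostly repeats the difference in PTPRC. PTPRC over LCK was 1.99 and 1.48 in the controls against 3.34 and 2.05 under shADAR1, so the groups were separated by a narrow margin. PTPN6 over PTPN11 was 0.326 and 0.394 in the controls against 0.453 and 0.694 under shADAR1. CSK over FYN was near 1 in all libraries, at 1.07 and 1.02 in the controls against 0.976 and 0.939 under shADAR1, with a difference of -0.12 on the log2 scale. CSK over LCK ranged from 1.72 to 2.30 and LCK over FYN from 0.463 to 0.562, and these groups overlapped. An exact permutation test of 2 libraries against 2 gave a two-sided p of 0.333 for each of the 4 separated ratios, the smallest this design allows, and 0.667 for the other 2, so none of the 6 ratios could pass.

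Other Src-family kinases, which CSK and CD45 are known to act on as well, were also expressed in NK-92 cells. FGR, a myeloid and NK kinase, was as abundant as FYN, with 181 and 207 FPKM in the controls against 237 and 191 FPKM under shADAR1. LYN had 49.8 to 70.8 FPKM and YES1 0.729 to 0.969 FPKM. Over the Src-family kinases on the list and among the members, the summed level was 502 and 546 FPKM in the controls against 584 and 552 FPKM under shADAR1. FYN made up 32.8% to 36.6% of the sum, FGR 34.5% to 40.5%, LCK 16.1% to 18.5% and LYN 8.53% to 12.8%. LCK was thus a minor part of the family by transcript level in every library. CSK amounted to 0.391 and 0.334 of the summed level in the controls against 0.339 and 0.319 under shADAR1, and the groups overlapped. Of the 3 tested kinases of this list (FGR, LYN, YES1), 0 had an unadjusted p under 0.05, and their median log2 fold change was 0.016.

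Further genes of the pathway were read from lists. Of all 11810 tested genes, 5905 were higher and 5902 lower in NK shADAR1 cells. Without overlap, 13.3% of them were higher and 12.6% lower. Of the 5 Syk and Tec family kinases, 4 were higher and 1 lower (median 0.11), 2 were higher without overlap, and none had an unadjusted p under 0.05. Of 7 tested CSK partners and relatives, 4 were higher and 3 lower (median 0.017). PTPRCAP, the small protein that associates with CD45, had 288 and 266 FPKM in the controls against 377 and 210 FPKM under shADAR1. Its knockdown libraries thus lay on either side of the controls, unlike PTPRC.

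Of 14 tested further phosphatases, 11 were higher and 3 lower in NK shADAR1 cells (median 0.17), 6 were higher and 1 lower without overlap (13.3% and 12.6% of all tested genes), and 0 had an unadjusted p under 0.05 (edgeR). PTPN7, a phosphatase of MAP kinases and the most abundant of them, had 133 and 157 FPKM in the controls against 179 and 143 FPKM under shADAR1. Of 19 tested receptor-associated and membrane adapters, 17 were higher and 2 lower (median 0.10), 4 of them higher without overlap. HCST (DAP10), which couples NKG2D to PI3 kinase, was the most abundant at 178 FPKM, with a log2 fold change of 0.29 (standard error 0.24). FYB1 (ADAP), an adapter phosphorylated by FYN that links receptors to integrins, was the member of this list with an unadjusted p under 0.05. FYB1 had 111 and 131 CPM in the controls against 175 and 169 CPM under shADAR1, a log2 fold change of 0.51 (standard error 0.20, unadjusted p = 0.0257, adjusted p = 1.00).

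Of 14 tested downstream effectors, 12 were higher and 2 lower (median 0.12), and 1 was higher without overlap (13.3% of all tested genes). None had an unadjusted p under 0.05 (edgeR). PIK3CD, the catalytic PI3 kinase subunit of lymphocytes, whose lipid product SHIP1 degrades, was the most abundant of this list at 97.8 FPKM, with a log2 fold change of -0.11 (standard error 0.20). Of 11 tested genes listed as receptors with inhibitory tail motifs, 9 were higher and 2 lower (median 0.33). Without overlap, 4 were higher and 2 lower, against 13.3% and 12.6% of all tested genes. Among the 4, PECAM1 had 0.007 to 0.337 FPKM and LAIR1 0.807 to 2.449 FPKM. Of the 2 lower, CD244 (2B4) is counted by the study among activating molecules in mouse NK cells. CD96, which binds the ligand CD155, was the most abundant of this list, with 326 and 358 CPM in the controls against 569 and 407 CPM under shADAR1. Its log2 fold change was 0.51 (standard error 0.22, unadjusted p = 0.0422, adjusted p = 1.00). CEACAM1, a receptor that recruits SHP-1, was lower in both knockdown libraries, with 77.4 and 86.2 CPM in the controls against 63.0 and 57.1 CPM under shADAR1. Its log2 fold change was -0.44 (standard error 0.20, unadjusted p = 0.0472, adjusted p = 1.00). These were the genes of the lists at an unadjusted p under 0.05, and none was called after adjustment.

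The genes whose profile over the 4 libraries was most like that of PTPRC were found by the root mean square difference of centred log2 CPM, among 6261 genes with a mean of at least 10 FPKM. They were PNN, a protein of splicing speckles (difference 0.073), PTPN22 (0.081) and DOCK10, a guanine nucleotide exchange factor (0.082). The study had also listed DOCK10 among the increased migration-related genes. PNN had 291 and 246 CPM in the controls against 413 and 358 CPM under shADAR1. All 3 had replicate 1 above replicate 2 in either group, as PTPRC did. For PTPN6 the nearest were S100A4, a calcium-binding protein (0.057), DPM3, a subunit of an enzyme of glycan precursor synthesis (0.084), and NDUFB1, a subunit of respiratory complex I (0.098). S100A4 had 12.8 and 19.9 CPM in the controls against 26.4 and 27.6 CPM under shADAR1. In these and PTPN6, replicate 2 was above replicate 1. With 4 libraries, many genes can share a profile, and the lists are a description.

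The deposited values also allow a view of the length by which each gene's counts were divided. The estimated count over the FPKM of a gene is proportional to that length, and was set to 1 for the median gene of each library. For PTPRC it was 1.33 and 1.28 in the controls against 1.21 and 1.35 under shADAR1. The shortest value was thus in NK shADAR1 replicate 1, where PTPRC was also highest, and the highest exceeded the lowest by 11.3%. FYN had the widest spread of the members, at 0.725 and 0.815 in the controls against 0.772 and 0.771 under shADAR1, a range of 12.4%. The median range over 11758 genes was 5.77%, and PTPRC was above 67.5% and FYN above 70.1% of them. PTPN6 varied by 1.76%, LCK by 2.83% and PTPN2 by 3.21%. PTPN22 was shorter in NK shADAR1 libraries without overlap, at 1.244 and 1.23 in the controls against 1.195 and 1.221 under shADAR1, as was PTPN11, at 2.19 and 2.18 in the controls against 2.10 and 2.14 under shADAR1. Their ranges were 4.13% and 4.11%. PTPN2 was longer in NK shADAR1 libraries without overlap, at 0.66 and 0.659 in the controls against 0.68 and 0.664 under shADAR1. The margins were narrow for PTPN22 (1.23 against 1.221) and for PTPN2 (0.66 against 0.664). The share of all genes separated in this way was not computed, so these separations describe values and are not a result about the members. What set the lengths was not tested. With the implied length as an offset in edgeR, a choice made after the data were seen, the log2 fold change of PTPRC was 0.68 and that of FYN 0.078.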

How the data were processed

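NK-92 mRNA was selected with oligo(dT), prepared with a NEBNext Ultra kit and sequenced on an Illumina NovaSeq in 2 NK scramble and 2 NK shADAR1 libraries. Estimated counts and FPKM values were deposited by the authors, the former as unscaled fractional estimates for each gene. The submitters' processing notes name fastp 0.18.0. The aligner, counter, genome build and annotation are not given in the sources used here. Of 20323 Ensembl identifiers, 20301 had a symbol in the reference names.

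Estimated counts were rounded, filtered with filterByExpr (minimum count 10), scaled by TMM and tested across all genes with the quasi-likelihood test of edgeR 4.0.16 in R 4.3.3 without covariates, which covered 11810 genes. A gene was called with a fold change of 1.5 or more and a Benjamini-Hochberg adjusted p under 0.05. The standard error is the log2 fold change over the square root of F. DESeq2 1.42.0 and limma 3.58.1 on log2(FPKM + 0.1) were alternatives. Counts summed to 37881704 to 39960491 per library, and each group had 2 libraries, which limits precision. The scripts were tested on simulated counts. Values are from bulk RNA, in which fewer cells and less RNA per cell cannot be told apart.

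The members and lists were chosen with earlier results of these data known. Named are the 10 members, the targeted gene, the most abundant gene of each list and its genes at an unadjusted p under 0.05, and the 3 genes of at least 10 FPKM nearest to PTPRC and to PTPN6. Other genes are named as family members, as markers, or to qualify a count over a list. Some genes that this rule covers are not reported here. Promoters were read from RefSeq (GRCh38.p14) and gene positions from GENCODE release 29. Replicate numbers were not used as a pairing, since the labels tie no culture or day to them. The log2 CPM values correlated at 0.9814 between the NK scramble replicates and at 0.9812 between the NK shADAR1 replicates. Between groups the correlation ran from 0.9807 to 0.9885, so some libraries of different groups were more alike than replicates. Tests without the replicate block do not account for this.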

Additional observations from a re-analysis of the deposited data

How the results depend on the processing

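The number of genes called was 0 with all libraries under edgeR, at an unadjusted p under 0.05 it was 293, and DESeq2, limma on FPKM, other scalings, other filters and no fold change threshold also gave 0. It was 213 with unadjusted p-values and the fold change, and 1 to 47 when 1 library was left out (47 without NK scramble replicate 1, 16 without NK shADAR1 replicate 1), where the lone sample is assumed to vary like the other group. With the replicate number as a replicate block it was 13, and deviations from the group means correlated at 0.31 between libraries of the same number. The block called no member, with an adjusted p of 0.184 for PTPRC, 0.263 for PTPN6 and 0.368 for PTPN22. At an adjusted p under 0.05 no alternative called any member, while unadjusted p-values with the fold change called PTPRC and PTPN6, and PTPRC, PTPN6, PTPN22 and INPP5D were higher in NK shADAR1 cells under all of them. PTPN11, at -0.0007, turned to 0.011 with upper quartile scaling, 0.0091 with a mean of at least 50 counts, 0.0028 with the replicate block, 0.069 with limma on FPKM and 0.042 with the implied length as an offset, which was chosen after the data were seen. With 1 library left out, log2 fold changes ranged from -0.21 to 0.23 for PTPN11, -0.17 to 0.14 for PTPN2, -0.071 to 0.21 for LCK, -0.0012 to 0.17 for FYN, -0.14 to 0.018 for CSK and -0.073 to 0.49 for ZAP70. Under the same omission, medians ranged from 0.087 to 0.19 for the members, 0.23 to 0.37 for the phosphatases and 0.0027 to 0.16 for the kinases among them (chosen after the data were seen), -0.011 to 0.076 for the other Src-family kinases, -0.062 to 0.40 for Syk and Tec kinases, -0.15 to 0.22 for CSK partners, 0.055 to 0.27 for further phosphatases, 0.027 to 0.22 for adapters, 0.0026 to 0.32 for downstream effectors and 0.16 to 0.43 for receptors with inhibitory motifs. The log2 ratio of CSK over LCK ranged from -0.27 to 0.070 and that of LCK over FYN from -0.16 to 0.11. The median of the other Src-family kinases was 0.13 with limma on FPKM, and that of the receptors with inhibitory motifs 0.22 with the implied length as an offset. The cause of these shifts was not tested.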
